A study of Mus musculus with 16 samples.

Results

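The 10 glycolysis genes Slc2a1, Hk1, Hk2, Pfkl, Pfkp, Aldoa, Pgk1, Pkm, Ldha and Pdk1 were followed across 7 groups of mouse stem cells. All probe sets whose only gene symbol was one of these 10 were taken, which gave 26 of the 45101 probe sets on the array, and 10 of the 18193 genes with a probe set of their own. Aldoa had 5 of these probe sets, Pdk1 had 4, Slc2a1, Pfkl, Pfkp and Pgk1 had 3 each, Hk1 had 2, and Hk2, Pkm and Ldha had 1 each. A further probe set of Hk1 also carried other gene symbols and was not used.

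The study placed haematopoietic stem cells (HSC), the marrow cells that renew all blood lineages, beside pluripotent cells on 16 arrays. Induced pluripotent stem cells (iPSC) of aged and of young haematopoietic origin had 2 arrays each, and embryonic stem cells (ESC), bought from different suppliers, had 2 arrays. HSC sorted from recipients of aged and of young bone marrow had 2 arrays each. HSC of aged (21 to 24 months) and of young (3 to 4 months) male mice at steady state had 3 arrays each. All groups are labelled wild type on a C57Bl6 background. The iPSC and ESC were grown on mouse embryonic fibroblast feeders and then sorted. Per the labels, arrays of an HSC or iPSC group were biological replicates, so the spread behind each p-value is that among arrays. The labels do not give the age or sex of the transplant recipients, the age of the iPSC donors, or whether animals were pooled.

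Glycolysis turns glucose into pyruvate in the cytosol. Glucose enters through transporters of the Slc2a family, hexokinase traps it as glucose 6-phosphate, and phosphofructokinase makes the committed step. Aldolase splits the sugar, phosphoglycerate kinase and pyruvate kinase make ATP, and lactate dehydrogenase regenerates the NAD+ that the pathway needs. Pyruvate dehydrogenase kinases such as Pdk1 hold pyruvate back from oxidation in the mitochondria. Quiescent HSC in the marrow are known for relying on glycolysis under low oxygen, with Pdk genes among the factors described in mouse HSC, and pluripotent cells are known for high glycolytic flux. Many genes of the pathway are targets of hypoxia inducible factors, whose core motif is ACGTG or GCGTG, and of Myc, whose core motif is CACGTG.

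The stretches shown next are the 150 bases before the annotated start of 4 members, because these 4 stand for the main patterns of the arrays: Slc2a1 and Hk2 were higher in pluripotent cells, Ldha was lower in iPSC, and Pgk1 was lowest after transplantation. They were taken from RefSeq on GRCm38.p6 and run 5′ to 3′ in the direction of the gene. Capitals mark ACGTG or GCGTG on either strand (CACGT and CACGC on the other strand), with overlapping matches joined. The positions are chr4:119108595-119108744 on the plus strand for Slc2a1, chr6:82774455-82774604 on the minus strand for Hk2, chr7:46845654-46845803 on the plus strand for Ldha and chrX:106186950-106187099 on the plus strand for Pgk1. The stretches of Slc2a1, Hk2 and Pgk1 end at the base before their annotated genes, whereas that of Ldha lies inside the annotated gene, chr7:46842274-46855627, before an inner start.
Slc2a1: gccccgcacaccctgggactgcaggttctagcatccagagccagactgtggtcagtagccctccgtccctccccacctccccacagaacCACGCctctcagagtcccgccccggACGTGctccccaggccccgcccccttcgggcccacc
Hk2: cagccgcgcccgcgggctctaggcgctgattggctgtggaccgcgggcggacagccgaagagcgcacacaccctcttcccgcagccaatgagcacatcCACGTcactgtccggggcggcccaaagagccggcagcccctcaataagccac
Ldha: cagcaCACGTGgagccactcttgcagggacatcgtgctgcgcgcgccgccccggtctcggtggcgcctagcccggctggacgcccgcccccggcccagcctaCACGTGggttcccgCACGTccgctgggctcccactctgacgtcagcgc
Pgk1: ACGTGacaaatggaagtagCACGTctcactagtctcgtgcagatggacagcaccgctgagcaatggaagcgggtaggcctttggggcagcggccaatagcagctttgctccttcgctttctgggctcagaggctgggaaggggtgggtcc
The Ldha stretch belongs to 1 of the 2 Ldha starts in the RefSeq table, and 2 of its marked sites read CACGTG. Over the 250 bases before each start, 12 of the 16 member promoters held at least 1 marked site, and each of the 10 genes had at least 1 such promoter. The 2 Aldoa windows with a site overlap and share that site. Of all 32851 RefSeq promoter windows of that length, 38.6% held a site. Ldha and Pfkp each had a window with 3 sites, and 4.65% of all windows had 3 or more. CACGTG stood in 6.02% of all windows. The number of CG dinucleotides in the member windows ran from 0 to 25, against a median of 6 over all windows. It was above 6 in every member window with a site. Since the motifs contain CG, the shares over all windows are not a like-for-like background for the members. These matches describe the letters in the windows, and no binding was measured here.

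Values are log2 of the deposited array intensity, and a member's level is that of its probe set with the highest mean, unless another is named. Levels of different probe sets cannot be compared, since probes differ in brightness. All 10 members and all 26 probe sets passed the filter on dim signals in every fit. Genes were tested with limma over 13645 genes, and "called" means a Benjamini-Hochberg adjusted p under 0.05. Markers separated pluripotent cells from HSC as labelled. The summed intensity of 9 pluripotency markers was 21514 to 22672 on iPSC arrays, 23637 to 23666 on ESC arrays, 165 to 189 on transplanted HSC arrays and 348 to 402 on steady-state HSC arrays. That of the 8 measured HSC markers was 582 to 731, 632 to 685, 6661 to 7838 and 19715 to 23259 in the same order. Median intensity ran from 43.52 to 51.94 per array.

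The 4 transplanted HSC arrays stood apart from all others in the Actb controls, in an 18S control and in Xist. Their Actb 3′ control minus 5′ control was -0.14 ± 0.09 on the log2 scale (SD, n = 4), against 2.33 ± 0.26 in iPSC (n = 4), 2.10 ± 0.18 in ESC (n = 2) and 2.16 ± 0.10 in steady-state HSC (n = 6). The 18S ribosomal RNA 3′ control read 14.45 ± 0.07 in transplanted HSC and 10.40 ± 0.45 in steady-state HSC. Xist read 13.43 ± 0.14 in transplanted HSC and 6.22 ± 0.24 in steady-state HSC, while the Y-linked gene Eif2s3y read 3.73 ± 0.19 and 10.53 ± 0.23. Every difference between transplanted HSC and another setting therefore cannot be told apart from these differences between arrays. Among iPSC, Eif2s3y also differed by origin, at 9.07 ± 0.23 in aged-origin and 3.76 ± 0.20 in young-origin cells (SD, n = 2 each).

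**Figure D1:**
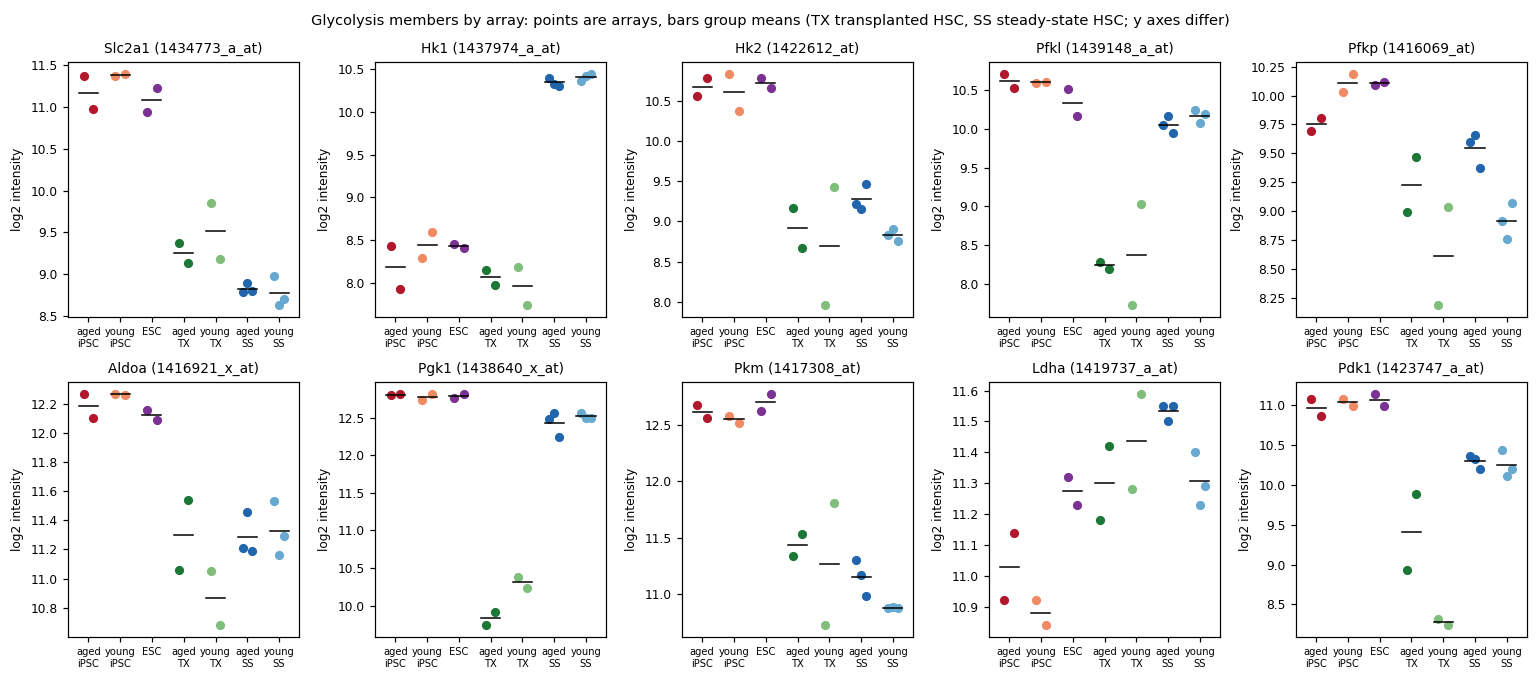
Log2 intensity of the representative probe set of each member on all 16 arrays; points are arrays, bars are group means and the y axes differ. Slc2a1, Hk2, Aldoa and Pkm sit highest in iPSC and ESC, Hk1 sits at 10.31 to 10.45 in steady-state HSC and at 8.59 or below elsewhere, and Pgk1 sits at 10.38 or below in transplanted HSC.

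The first comparison set pluripotent cells against steady-state HSC. In iPSC, 8 of the 10 members were called higher and 2, Hk1 and Ldha, were called lower. This contrast was broad: 76.4% of all 13645 genes were called, 41.8% of them higher in iPSC and 34.7% lower as shares of all genes, with limma. The median log2 difference was 0.71 over the 10 members and 0.17 over all genes. In ESC, 7 members were called higher and 1, Hk1, lower, where 65.6% of all genes were called (34.3% higher, 31.3% lower), and the medians were 0.80 over the members and 0.13 over all genes. The arrays did not overlap for all 10 members in iPSC and for 8 in ESC, beside 73.3% and 75.4% of all genes. Both contrasts used the same 6 steady-state arrays. In these bulk samples, fewer cells of a type and less RNA per cell cannot be told apart.

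Slc2a1, the GLUT1 glucose transporter, had the largest rise of the 10. Its levels were 11.37 and 10.97 in aged-origin iPSC, 11.37 and 11.40 in young-origin iPSC, and 10.94 and 11.23 in ESC. In aged steady-state HSC it read 8.79, 8.89 and 8.80, and in young steady-state HSC 8.98, 8.63 and 8.70. Every pluripotent array thus lay above every steady-state array. The iPSC minus steady-state difference was 2.48 (SE 0.15), or 5.57-fold, with a limma adjusted p of 1.339e-09, and the ESC minus steady-state difference was 2.29 (SE 0.19). All 3 Slc2a1 probe sets were called higher in iPSC, by 1.82 to 2.53.

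The hexokinases moved in opposite directions. Hk2, the inducible hexokinase of growing and insulin-responsive tissues, read 10.56 and 10.79 in aged-origin iPSC, 10.84 and 10.38 in young-origin iPSC and 10.78 and 10.66 in ESC. It read 9.22, 9.15 and 9.47 in aged and 8.83, 8.91 and 8.76 in young steady-state HSC. The 2 sets of arrays did not overlap, and Hk2 was 3.00-fold higher in iPSC (log2 difference 1.59, SE 0.23, limma adjusted p 1.757e-05).

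Hk1, the constitutive hexokinase that binds mitochondria, read 8.43 and 7.93 in aged-origin iPSC, 8.29 and 8.59 in young-origin iPSC and 8.46 and 8.41 in ESC. Its steady-state levels were 10.40, 10.33 and 10.31 in aged HSC and 10.36, 10.42 and 10.45 in young HSC. The steady-state arrays lay within a narrow band far above the pluripotent ones. Hk1 was 4.19-fold lower in iPSC (log2 difference -2.07, SE 0.13, limma adjusted p 2.504e-09) and -1.94 (SE 0.16) in ESC on the same scale. The other Hk1 probe set, 1420901_a_at, read 4.39 to 4.48 on the 4 iPSC arrays and 7.91 to 8.74 on the 6 steady-state arrays. It too was called lower in iPSC, by a log2 difference of -3.88. The 25th percentile of all probe sets on these iPSC arrays was 4.26 to 4.31, so in iPSC this probe set lay close to the dim end of the array.

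Phosphofructokinase, the committed step, is built from liver (Pfkl), platelet (Pfkp) and muscle subunits. Pfkp read 9.69 and 9.81 in aged-origin iPSC, 10.03 and 10.19 in young-origin iPSC and 10.09 and 10.12 in ESC. In aged steady-state HSC it read 9.60, 9.66 and 9.37, and in young steady-state HSC 8.92, 8.76 and 9.07. The lowest iPSC array lay just above the highest steady-state array. The iPSC difference was 0.70 (SE 0.16, limma adjusted p 1.271e-03) and the ESC difference 0.87 (SE 0.20). Pfkl ran from 10.53 to 10.71 in iPSC and from 9.94 to 10.24 in steady-state HSC. Its iPSC difference of 0.50 (SE 0.19, limma adjusted p 0.0298) had the largest adjusted p of the 10, although these arrays did not overlap. The ESC difference of 0.22 was not called (limma adjusted p 0.436). Both SEs pooled the spread of all 16 arrays, the transplanted ones included. Pfkl had an SD of 0.07 over iPSC arrays (n = 4), 0.11 over steady-state arrays (n = 6) and 0.54 over transplanted arrays (n = 4). The adjusted p-values, also those with an array left out, thus do not measure the spread of the compared arrays alone. The call of Pfkl in iPSC was lost without aged-origin iPSC replicate 1 (adjusted p 0.0923), without either young-origin iPSC replicate (0.0672 and 0.0702), and without aged steady-state HSC replicate 3 (0.058) or young steady-state HSC replicate 2 (0.0568). Another Pfkl probe set, 1450269_a_at, gave an iPSC difference of -0.12 and an ESC difference of -0.14, neither called. The third and dimmest, 1453541_at, was called higher by 0.79 in iPSC and by 1.09 in ESC.

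The enzymes of the lower pathway followed. Pkm encodes pyruvate kinase M, whose M2 splice form is typical of proliferating cells, and its probe set does not name a splice form. It read 12.68 and 12.56 in aged-origin iPSC, 12.58 and 12.52 in young-origin iPSC and 12.63 and 12.78 in ESC. Steady-state levels were 11.30, 11.17 and 10.98 in aged HSC and 10.87, 10.88 and 10.87 in young HSC. The 2 sets of arrays were more than 1 log2 unit apart, and Pkm was 2.98-fold higher in iPSC (log2 difference 1.57, SE 0.17, limma adjusted p 9.339e-07). Aldoa, the aldolase of muscle and most growing tissues, ran from 12.10 to 12.27 in iPSC, from 12.09 to 12.16 in ESC and from 11.16 to 11.53 in steady-state HSC. It was 1.89-fold higher in iPSC (log2 difference 0.92, SE 0.13, limma adjusted p 1.898e-05), and all 5 Aldoa probe sets were called higher there, by 0.92 to 1.38.

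Pgk1, phosphoglycerate kinase, makes the first ATP of the pathway and is encoded on the X chromosome. It ran from 12.74 to 12.82 in iPSC, from 12.76 to 12.82 in ESC and from 12.24 to 12.56 in steady-state HSC. The iPSC difference was small at 0.32 (SE 0.10, limma adjusted p 0.0112), and the ESC difference of 0.32 (SE 0.13) had an adjusted p of 0.0434. The call in ESC was lost with either ESC array left out (adjusted p 0.121 and 0.1997). Of the other Pgk1 probe sets, 1417864_at gave -0.27 and 1439435_x_at gave 0.37 in iPSC, neither called.

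Ldha, the lactate dehydrogenase subunit that makes lactate from pyruvate, was called lower in iPSC, as was Hk1. It read 10.92 and 11.14 in aged-origin iPSC, 10.92 and 10.84 in young-origin iPSC and 11.32 and 11.23 in ESC. Steady-state levels were 11.55, 11.50 and 11.55 in aged HSC and 11.40, 11.23 and 11.29 in young HSC. All iPSC arrays lay below all steady-state arrays, whereas the ESC arrays read about as high as the 2 lower young HSC arrays. Ldha was 1.38-fold lower in iPSC (log2 difference -0.47, SE 0.11, limma adjusted p 1.327e-03), and its ESC difference of -0.15 was not called (adjusted p 0.357). With each array centred on the median of the genes tested, an alternative chosen after the data were seen, the iPSC difference was -0.18 and no longer called (adjusted p 0.121).

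Pdk1, the kinase that switches off pyruvate dehydrogenase, gave opposite answers in different probe sets. Probe set 1423747_a_at read 11.07 and 10.86 in aged-origin iPSC, 11.07 and 10.99 in young-origin iPSC and 11.14 and 10.99 in ESC, against 10.11 to 10.44 on the 6 steady-state arrays. Its groups did not overlap, and its iPSC difference was 0.73 (SE 0.16, limma adjusted p 8.197e-04). Probe set 1435836_at ran from 7.58 to 7.82 in iPSC and from 9.18 to 9.44 in steady-state HSC, a called difference of -1.63. The remaining 2 gave 0.28 and -0.52 and were not called. The mean of the 4 probe sets had an iPSC difference of -0.29 (adjusted p 0.0502), so a direction for Pdk1 as a gene depends on the probe set.

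Over the probe sets, 16 of the 26 were called higher and 4 lower in iPSC, in a fit over 33778 probe sets of which 67.4% were called. In ESC 15 were called higher and 3 lower, with 54.9% of all probe sets called. Of the 7 members with several probe sets, only Pdk1 was called in both directions in iPSC, as were 17.9% of all genes with several probe sets. In ESC 11.7% of all such genes were. The markers of other cells differed as well. The summed intensity of 10 feeder fibroblast markers was 503 to 873 in iPSC and 366 to 404 in steady-state HSC, and Lum was dim on the arrays of every group. The summed intensity of the 15 measured proliferation genes was 34532 to 38450 in iPSC and 10976 to 23575 in steady-state HSC. Their part in the member differences was not tested.

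**Figure D2:**
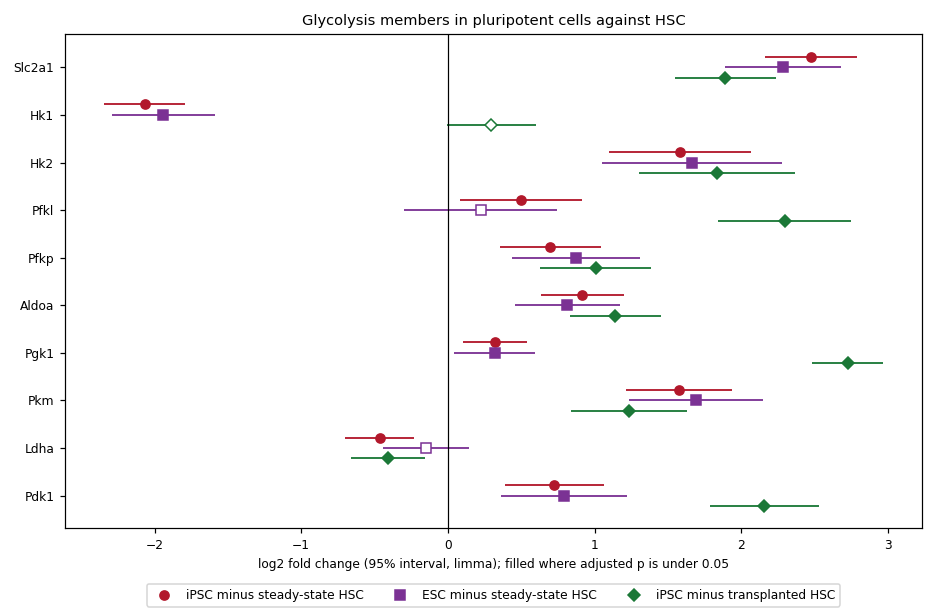
Log2 fold change of each member with its 95% interval from limma, for iPSC minus steady-state HSC, ESC minus steady-state HSC and iPSC minus transplanted HSC; filled symbols have an adjusted p under 0.05. Slc2a1, Hk2 and Pkm lie at 1.57 or above in both contrasts with steady-state HSC, Hk1 lies at -2.07 and -1.94, and Pgk1, Pfkl and Pdk1 lie above 2 against transplanted HSC.

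No member was called between iPSC and ESC, where 0.11% of all genes were called by limma and 1737 of 13645 had an unadjusted p under 0.05. None of the 26 probe sets was called either, with 0.0947% of all probe sets called. In the brightest probe set of each member, the largest difference was that of Ldha at -0.32 (95% interval -0.57 to -0.06, limma adjusted p 0.310). All 4 iPSC arrays lay below both ESC arrays for Ldha. Pfkl differed by 0.28 (interval -0.01 to 0.56) with all 4 iPSC arrays above both ESC arrays. Pgk1 differed by 0.002 (interval -0.23 to 0.24). These 2 non-overlapping members compare with 23.8% of all genes whose arrays did not overlap in this contrast. Other probe sets gave other readings. All 4 Pdk1 probe sets were below 0, at -0.94 to -0.06. The dimmest, 1434974_at, read 5.19 to 5.90 in iPSC and 6.35 to 6.62 in ESC, without overlap. The Pfkl probe sets ran from -0.31 to 0.28.

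Transplanted HSC were set against the same steady-state arrays. Slc2a1 was the 1 member called higher, and 4, Pgk1, Hk1, Pfkl and Pdk1, were called lower. These 5 were also the members whose arrays did not overlap, beside 54.8% of all genes. Of all genes 69.9% were called, 19.8% higher and 50.1% lower, and the median difference was -0.28 over the members and -0.46 over all genes. With a shift of all genes of this size, calls depended on the scaling. Centring each array on the median of its tested genes added 0.68 to every difference and gave 4 members higher, with Pkm at 1.02, Ldha at 0.62 and Aldoa at 0.46 called beside Slc2a1, and 4 lower. Centring each array on its overall median took 0.20 from every difference and gave 0 higher and 6 lower, with Pfkp at -0.51 and Aldoa at -0.43 called lower and the call of Slc2a1 lost (adjusted p 0.0551). The shares of all genes given above belong to the deposited scaling. Shares under these other scalings are not given here, so these counts of members have no background beside them. The scatter within this setting was wider too, with a median SD of 0.42 over the members in transplanted HSC and 0.12 in steady-state HSC. On simulated arrays with these unequal spreads, limma called more false genes than its threshold allows in this contrast and in the transplanted age contrast. Adjusted p-values there can thus be too small. The simulation changed only 200 of 13645 genes, so its share of false calls does not carry over to this contrast. The contrast of iPSC with transplanted HSC was not simulated.

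Pgk1 read 9.74 and 9.92 in aged and 10.38 and 10.24 in young transplanted HSC, against 12.48, 12.56 and 12.24 in aged and 12.56, 12.50 and 12.49 in young steady-state HSC. The settings were almost 2 log2 units apart at their nearest arrays. Pgk1 was 5.30-fold lower after transplantation (log2 difference -2.40, SE 0.12, limma adjusted p 1.192e-07). Its other probe sets moved less, at -1.17 for 1417864_at, which was called, and -0.36 for 1439435_x_at, which was not. Pgk1 lies on the X chromosome, and the Xist levels given above differed between the same arrays; the part of this in the Pgk1 values was not tested.

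Hk1 read 8.15 and 7.98 in aged and 8.18 and 7.74 in young transplanted HSC, about as low as in iPSC. Its difference from steady-state HSC was -2.36 (SE 0.13, limma adjusted p 1.840e-07), or 5.15-fold lower. The second Hk1 probe set, 1420901_a_at, went the other way. It read 8.92 and 8.90 in aged and 9.27 and 9.40 in young transplanted HSC, above its steady-state range of 7.91 to 8.74, and was called higher by 0.82. The fall of Hk1 after transplantation therefore rested on 1 of its 2 probe sets.

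Pfkl ran from 7.73 to 9.03 in transplanted HSC and from 9.94 to 10.24 in steady-state HSC, a difference of -1.80 (SE 0.22, limma adjusted p 3.780e-05). Its other probe sets gave -0.04 and -0.13, neither called. Pfkp ran from 8.19 to 9.47 in transplanted HSC and from 8.76 to 9.66 in steady-state HSC, and its difference of -0.31 was not called. The other Pfkp probe sets were called higher by 2.58 and 3.06 in transplanted HSC, so the mean of the 3 probe sets rose by 1.78 (adjusted p 9.018e-07). The phosphofructokinase values thus changed with the probe set read.

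Pdk1 read 8.93 and 9.88 in aged and 8.32 and 8.24 in young transplanted HSC, below its steady-state range of 10.11 to 10.44, a difference of -1.43 (SE 0.18, limma adjusted p 5.187e-05). Of its other probe sets, those at -0.93 and -1.38 were called lower and the dimmest, 1434974_at, was called higher by 1.30. Slc2a1 read 9.37 and 9.13 in aged and 9.85 and 9.18 in young transplanted HSC, above its steady-state range of 8.63 to 8.98. Its difference was 0.58 (SE 0.16, limma adjusted p 0.00702), and its 3 probe sets were all called higher, by 0.58 to 1.72.

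Hk2, Pkm, Aldoa and Ldha were not called between transplanted and steady-state HSC. Their differences were -0.25, 0.34, -0.22 and -0.06, with limma adjusted p between 0.147 and 0.688. Hk2 and Pkm were the most scattered: young transplanted HSC read 7.96 and 9.43 for Hk2 and 10.72 and 11.81 for Pkm. Leaving out young transplanted HSC replicate 1 gave Pkm a called difference of 0.61, and leaving out young transplanted HSC replicate 2 gave Hk2 a called difference of -0.62 and Pfkp one of -0.52.

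Over all probe sets, 8 of the 26 were called higher and 7 lower in transplanted HSC, where 66.6% of all probe sets were called. Hk1 and Pdk1 were called in both directions, 2 of the 7 members with several probe sets, against 38.3% of all such genes. The summed proliferation genes were 14890 to 25854 in transplanted and 10976 to 23575 in steady-state HSC. The summed intensity of the 8 measured mature blood markers was 1321 to 2639 in transplanted and 1442 to 2811 in steady-state HSC. All 8 measured HSC markers were called lower in transplanted HSC, where 50.1% of all genes were. Their median difference was -1.71, against -0.46 over all genes. The part of this in the member values was not tested.

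**Figure D3:**
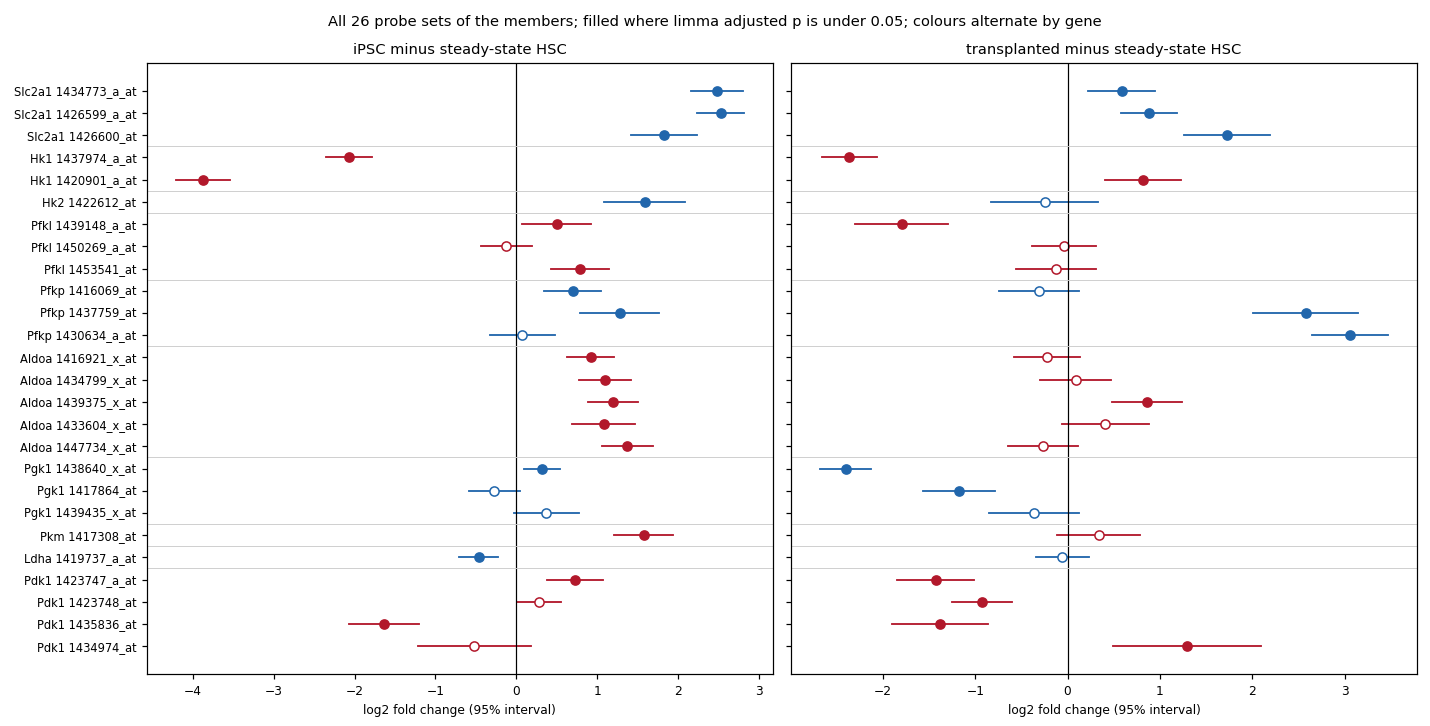
Log2 fold change with 95% interval of all 26 probe sets of the members, for iPSC minus steady-state HSC on the left and transplanted minus steady-state HSC on the right; filled symbols have an adjusted p under 0.05 and colours alternate by gene. On the left the probe sets of Slc2a1, Hk1 and Aldoa were each called in 1 direction; on the right those of Hk1 and Pdk1 were called in both, and the Pfkp probe sets spread from -0.31 to 3.06.

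Set against transplanted HSC, iPSC had 8 members called higher and 1, Ldha, lower, where 79.4% of all genes were called (52.1% higher, 27.3% lower). The arrays of these 9 did not overlap, beside 70.1% of all genes. The medians were 1.53 over the members and 0.46 over all genes. The largest differences were those of Pgk1 at 2.73, Pfkl at 2.30 and Pdk1 at 2.16, the same members that were low in the transplanted arrays. Hk1 differed by 0.30 and was not called (limma adjusted p 0.0689), and its second probe set turned the gene mean to -2.20. Pfkp differed by 1.01 in its brightest probe set and by -1.09 in the mean of its 3 probe sets. Over the probe sets, 16 of the 26 were called higher and 5 lower in iPSC, where 75.5% of all probe sets were called. Pdk1 and Pfkp were called in both directions, beside 26.7% of all genes with several probe sets.

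Age was compared in each setting. No member was called between aged and young steady-state HSC, where limma called 1.18% of all genes and 861 of 13645 had an unadjusted p under 0.05. The median difference was 0.05 over the members and -0.02 over all genes. Pfkp came nearest, at 9.60, 9.66 and 9.37 in aged HSC and 8.92, 8.76 and 9.07 in young HSC. Its difference was 0.63 (95% interval 0.10 to 1.16, limma adjusted p 0.558), or 1.55-fold. When only the 6 steady-state arrays were fitted, the adjusted p was 0.0455, and with array quality weights on all HSC arrays it was 0.0371. The other Pfkp probe sets gave 0.36 and 0.13. None of the 26 member probe sets was called, where 0.601% of all probe sets were.

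In the brightest probe set, all 3 aged steady-state arrays lay above all 3 young ones for 4 members, Pfkp, Hk2, Pkm and Ldha. In that reading they lay below for no member. Over all genes, 8.84% lay above and 9.35% below in this way, 18.2% in all. Hk2 differed by 0.45 (95% interval -0.26 to 1.16), Pkm by 0.27 (-0.28 to 0.82) and Ldha by 0.22 (-0.12 to 0.57). Slc2a1, Hk1, Pfkl, Aldoa, Pgk1 and Pdk1 differed by -0.12 to 0.06. The widest of these intervals, for Pfkl, ran from -0.73 to 0.50. In another Pfkl probe set, 1450269_a_at, all aged arrays lay below all young ones. It read 9.16 to 9.38 in aged and 9.42 to 9.64 in young steady-state HSC, a difference of -0.27 that was not called. All these steady-state age intervals and adjusted p-values used a spread shared with the more scattered transplanted arrays. They do not measure the spread among steady-state arrays alone. Group SDs there were 0.17 and 0.08 for Hk2 and 0.16 and 0.01 for Pkm (aged and young, n = 3 each), beside SEs of 0.32 and 0.25. The summed proliferation genes were 10976 to 17785 in aged and 18568 to 23575 in young steady-state HSC, and the HSC markers were 22422 to 23259 and 19715 to 21755. The middle 18S ribosomal RNA control read 10.64 to 10.84 in aged and 11.52 to 12.54 in young steady-state HSC, and the 5′ control 11.24 to 11.78 and 12.22 to 12.63, without overlap. The part of these in the member values was not tested.

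No member was called between aged and young transplanted HSC, where limma called 1.35% of all genes and 2079 had an unadjusted p under 0.05. None of the 26 probe sets was called, with 0.779% of all called. In the brightest probe set, the arrays did not overlap for 3 members, Pdk1 and Aldoa above and Pgk1 below, beside 31.7% of all genes. Pdk1 had the largest difference, at 8.93 and 9.88 in aged and 8.32 and 8.24 in young transplanted HSC. It was 1.13 (SE 0.28, limma adjusted p 0.0933), and 0.0182 when all 16 arrays shared a fit. It turned on aged transplanted HSC: 1.60 (adjusted p 0.0156) without replicate 1 and 0.65 (0.229) without replicate 2. The other Pdk1 probe sets gave 0.27, -0.73 and 0.64. All 3 Slc2a1 probe sets were below 0, at -0.82 to -0.27, and all 3 Pfkp probe sets above 0, at 0.17 to 0.61. Those of Pfkl ran from -1.04 to 0.38 and those of Hk1 from -0.42 to 0.10. Pfkl probe set 1450269_a_at read 8.71 to 8.92 in aged and 9.54 to 10.16 in young transplanted HSC, without overlap. Pfkp differed by 0.61 (95% interval -0.03 to 1.26) and Pgk1 by -0.48 (-0.90 to -0.06). Without young transplanted HSC replicate 1, Pfkl was called lower at -0.80, and without replicate 2, Hk2 and Pfkp were called higher at 0.96 and 1.04. The summed proliferation genes were 14890 to 19379 in aged and 24370 to 25854 in young transplanted HSC.

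No member was called for a difference between its age effects in the transplanted and the steady-state setting, in a test that called 0.125% of all genes by limma and gave 1328 an unadjusted p under 0.05. Pdk1 had the largest difference of age effects, at 1.08 (95% interval 0.27 to 1.90, limma adjusted p 0.353). That of Pfkp was -0.02 with an interval from -0.85 to 0.82. The intervals of Hk2, Pfkl, Aldoa, Pdk1 and Slc2a1 reached beyond a 2-fold change.

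Between aged-origin and young-origin iPSC no member was called, where limma called 0.00733% of all genes and 679 had an unadjusted p under 0.05. The 1 gene called was a sex-linked one. Origin went together with the Y-linked Eif2s3y, at 9.07 ± 0.23 in aged-origin and 3.76 ± 0.20 in young-origin cells (SD, n = 2 each). The part of this in the member values was not tested. None of the 26 probe sets was called, with 0.0118% of all called. The arrays did not overlap for 2 members, Ldha above and Pfkp below, beside 33.4% of all genes. Pfkp read 9.69 and 9.81 in aged-origin and 10.03 and 10.19 in young-origin iPSC, a difference of -0.36 (95% interval -0.65 to -0.08, limma adjusted p 0.976). Its sign was opposite to that in steady-state HSC, and the difference between these 2 contrasts was not tested. Hk1 differed by -0.27, Slc2a1 by -0.21 and Ldha by 0.15, and the other 6 by -0.08 to 0.07. In these brightest probe sets, the intervals of the members other than Pfkp all included 0. Over all probe sets of a gene, Pdk1 ran from -0.06 to 0.23, Pgk1 from -0.17 to 0.02 and Pfkp from -0.51 to -0.04. The lowest Pfkp value came from 1430634_a_at, which read 4.53 ± 0.52 in aged-origin iPSC (SD, n = 2), close to the dim end of the array.

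**Figure D4:**
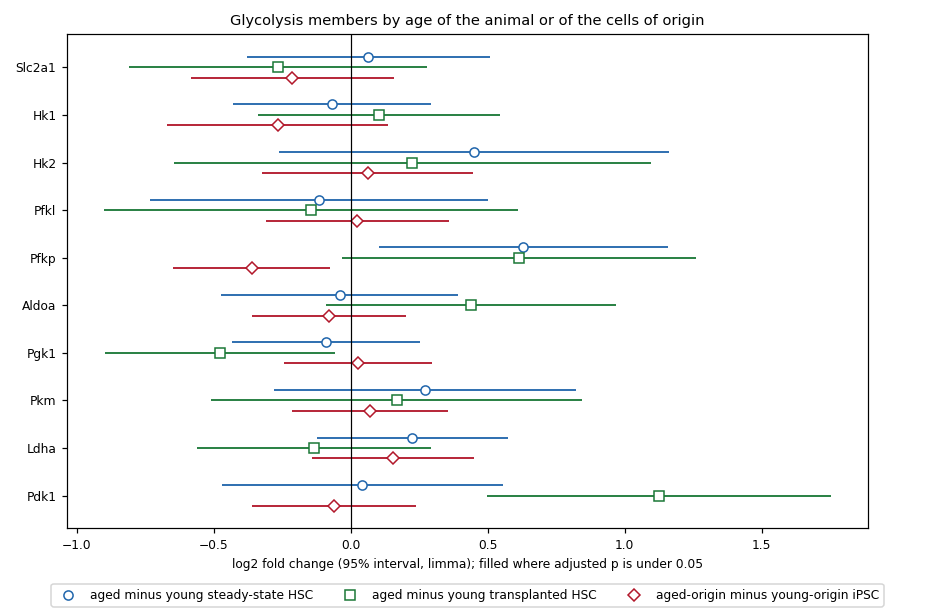
Log2 fold change of each member with its 95% interval for aged minus young steady-state HSC, aged minus young transplanted HSC and aged-origin minus young-origin iPSC; open symbols have an adjusted p of 0.05 or more, and none was below. Most intervals cross 0, and Pdk1 in transplanted HSC lies farthest out at 1.13.

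A difference between paralogues within an array does not depend on how arrays are scaled to each other. It shows unequal change and not which gene changed, and its size on one array is not a ratio of transcripts. Hk2 minus Hk1 was 2.13, 2.86, 2.55 and 1.79 on the 4 iPSC arrays and ran from -1.69 to -0.84 on the 6 steady-state arrays. The means were 2.33 ± 0.47 (SD, n = 4) and -1.32 ± 0.32 (n = 6), a change of 3.65 with an exact two-sided permutation p of 0.00952, the smallest this design allows, and 0.0143 after Benjamini-Hochberg adjustment over 6 such tests. It stayed between 3.48 and 3.84 with any 1 array left out. The ESC arrays read 2.32 and 2.25. Every iPSC array lay above every steady-state array for Hk2 and below it for Hk1. The smallest p in iPSC was therefore fixed by these separations and adds no support to them.

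In transplanted HSC, Hk2 minus Hk1 was 1.02, 0.69, -0.22 and 1.69, all above the steady-state arrays, with an adjusted exact permutation p of 0.0143. With the mean of the Hk1 probe sets, this change fell to 0.53 (exact permutation p 0.171). Pfkp minus Pfkl changed little in iPSC, at -0.68 ± 0.26 (SD, n = 4) and -0.88 ± 0.42 in steady-state HSC (n = 6; exact permutation p 0.39). In transplanted HSC it was 0.61 ± 0.53 (n = 4), a change of 1.49 (adjusted exact permutation p 0.0143). Among the glucose transporters, Slc2a3 (GLUT3, a high-affinity transporter known from neurons and the early embryo) minus Slc2a1 was 1.37 ± 0.11 in iPSC and 2.74 ± 0.25 in steady-state HSC. Slc2a3 itself was also called higher in iPSC, by 1.11, so both transporters rose and Slc2a1 rose more. In transplanted HSC the difference was 2.15 ± 0.34 (n = 4), a change of -0.59 (adjusted exact permutation p 0.0229). The mean of each gene's probe sets turned that change to 0.62, and it missed the threshold without aged transplanted HSC replicate 1 or either young one (exact permutation p 0.0571).

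**Figure D5:**
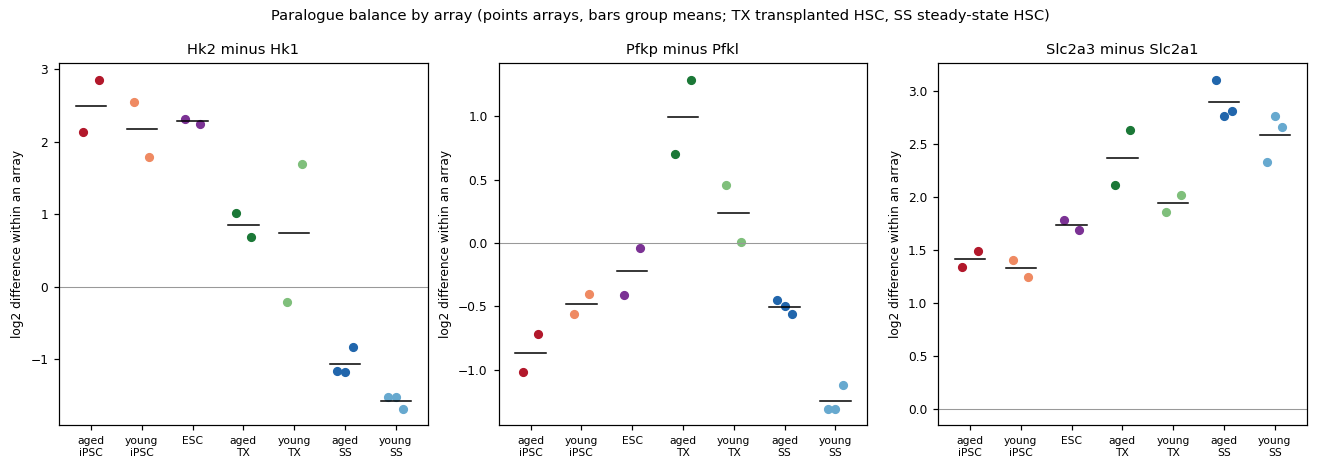
Within-array log2 difference between paralogue probe sets on each array, with group means as bars. Hk2 minus Hk1 lies at 1.79 or above on all iPSC and ESC arrays and at -0.84 or below on all steady-state HSC arrays.

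The other genes of the pathway were read from 8 lists in iPSC minus steady-state HSC. Of 17 other glycolysis enzymes and regulators tested, 8 were called higher and 5 lower, with a median of 0.21, where 76.4% of all genes were called. Tigar, a phosphatase that lowers fructose 2,6-bisphosphate, rose by 4.57 (limma adjusted p 7.828e-10). Pfkfb3, which makes that activator of phosphofructokinase, fell by 2.81 (adjusted p 4.052e-09). Among isoenzymes, Eno3 rose by 1.69 and Pgam2 by 1.40, whereas Hk3 fell by 2.22. Eno2 was called lower at 4.22 ± 0.38 in iPSC, about the 25th percentile of those arrays, against 6.06 ± 0.34 in steady-state HSC (SD, n = 4 and 6). Gapdh had no probe set of its own symbol in the table, but its 3′ control read 13.69 ± 0.04 in iPSC (SD, n = 4), 13.79 ± 0.09 in ESC (n = 2), 13.19 ± 0.11 in transplanted HSC (n = 4) and 12.74 ± 0.11 in steady-state HSC (n = 6).

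Of 8 glucose and lactate transporters, 5 were called higher in iPSC, among them Slc2a3, Slc2a5 at 0.79 and Slc2a6 at 0.55, and 2 lower, the lactate and pyruvate carrier Slc16a7 and the urate and hexose transporter Slc2a9. Slc16a7 read 3.69 ± 0.13 in iPSC (SD, n = 4), under the 25th percentile of those arrays, against 7.15 ± 0.44 in steady-state HSC (n = 6). Slc2a9 read 4.31 ± 0.20 in iPSC, at that percentile, against 6.86 ± 0.53 in steady-state HSC. Of 11 genes of pyruvate dehydrogenase, its regulators and pyruvate import, 4 were higher, including the subunits Pdhx at 1.25 and Pdhb at 0.70. Another 3 were lower, the phosphatase Pdp1 at -2.37, the pyruvate carrier Mpc1 at -1.42 and Dld at -0.77. Their median was -0.15. In the pentose phosphate pathway 4 of 6 were higher, with Rpe at 2.10 and Pgls at 1.38, and 2 lower, with Rpia at -2.10, for a median of 1.09. In the tricarboxylic acid cycle 4 of 12 were higher and 3 lower, with a median of -0.08. Of 5 gluconeogenesis genes 2 were higher, Pcx at 1.33 and Fbp2 at 0.35, and 3 lower, led by Fbp1 at -2.50.

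Of 11 regulators of glycolysis genes, 3 were higher in iPSC and 8 lower. Lin28a, an RNA-binding protein of pluripotent cells, was called higher at 10.09 ± 0.11 in iPSC (SD, n = 4), against 3.81 ± 0.43 in steady-state HSC (n = 6), and Epas1, which encodes the hypoxia inducible factor subunit HIF-2α, rose by 2.50. Meis1, an HSC transcription factor described in mouse as an activator of Hif1a, was called lower at 3.66 ± 0.29 in iPSC (n = 4), against 11.90 ± 0.31 in steady-state HSC (n = 6). The low side of Lin28a and of Meis1 lay under the 25th percentile of its arrays, so the size of these differences is not given. Egln1, a prolyl hydroxylase that marks HIF for decay, fell by 1.96. Of 11 hypoxia targets outside glycolysis, 4 were higher, among them P4ha2 at 2.13 and Adm at 0.97, and 6 lower, among them Ndrg1 at -4.31, Car9 at -2.18 and P4ha1 at -1.84. Genes listed for the same factors thus moved in both directions. Epas1 was the only gene of these 8 lists called with age. It averaged 8.21 ± 0.15 in aged and 6.51 ± 0.25 in young steady-state HSC (SD, n = 3 each), a difference of 1.70 (limma adjusted p 0.00247). In transplanted HSC it averaged 6.95 ± 0.32 in aged and 5.42 ± 0.24 in young cells (SD, n = 2 each), a difference of 1.53 (limma adjusted p 0.0224, subject to the wider spread of those arrays given above).

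In transplanted minus steady-state HSC, 10 of 17 other glycolysis enzymes were called lower and 1 higher, with a median of -0.65, beside 50.1% of all genes called lower. Pfkm fell by 1.64, Hkdc1 by 1.54 and Eno3 by 1.51. Hkdc1 read 4.46 ± 0.47 and Eno3 4.75 ± 0.48 in transplanted HSC (SD, n = 4). The 25th percentile of those arrays was 4.16 to 4.26, so both lay toward the dim end, and the size of their falls is uncertain. In the tricarboxylic acid cycle 10 of 12 were lower, with Sucla2 at -2.13 and Suclg1 at -1.88. Among the regulators Myc at 2.05 and Arnt at 1.97 were 2 called higher, and Hif1a at -1.67, Meis1 at -2.12 and Epas1 at -1.18 were among 7 called lower.

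The gene most like each member over the 16 arrays was taken by Pearson's r of log2 levels, as a description. The 16 points come from pluripotent, transplanted and steady-state cells, whose levels differ by setting, so they are not independent points. It was Alas1 for Pgk1 (r = 0.994), Cpsf4l for Slc2a1 (0.990), Rab14 for Hk1 (0.989), Dmwd for Pdk1 (0.989), St3gal3 for Pfkl (0.988), Zfp593 for Aldoa (0.982), Cyhr1 for Pkm (0.980), Nubp1 for Hk2 (0.970), Pnpla6 for Pfkp (0.941) and Tmem69 for Ldha (0.895). Ldha, whose group means spanned the least, had the lowest best match.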

How the data were processed

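Expression was measured on 16 single-colour Affymetrix arrays. Per the labels' protocols, total RNA was extracted with a QIAGEN microRNeasy kit and biotinylated cRNA was hybridised. The authors deposited 1 table of linear intensity values, from 4.53 to 31493, whose summarisation and normalisation are not given in the sources used here. Tests used log2 of these deposited intensities, without a pseudocount, and kept the authors' scaling. A probe table named genes: 34945 probe sets had 1 symbol, 932 several, 9160 were unlisted and 64 were controls. Of 18193 genes, 18032 matched RefSeq and 0 symbols changed.

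A gene with several probe sets took its values from the one of highest mean. Each fit left out the dimmest 25% of genes by mean log2 intensity. limma 3.58.1 (lmFit, eBayes) in R 4.3.3 fitted group means on the 10 HSC arrays, the 6 iPSC and ESC arrays, or all 16 arrays for contrasts between them, with 6, 3 and 9 residual degrees of freedom. Each fit pooled the spread within all its groups, also those not compared. Probe sets were fitted alike. Paralogue differences used exact permutation tests (scipy 1.17.1). The fits were tested on simulated data: with equal spread in all settings false calls stayed near the threshold, and with the spread of each setting they were well above it in both contrasts simulated with transplanted HSC, and somewhat above it within pluripotent cells. The number of arrays, 2 or 3 per group, limits precision. The table held no detection calls.

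Replicate numbers did not pair the arrays: deviations of same-numbered steady-state arrays correlated at 0.147, -0.197 and 0.194. Named genes were all 10 members, up to 3 called genes per list, direction and contrast with the smallest p, the best-correlated genes, and controls. Marker and pathway lists and the members were chosen with earlier results of these data known. Alternatives covered scaling, the dim filter, probe set means, a pseudocount of 64, the variance prior, array weights, a replicate block, a 2-fold limit, narrower or wider fits, and each array left out.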

Additional observations from a re-analysis of the deposited data

How the results depend on the processing

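Of 2120 alternative values of single members, 2057 kept their side of the threshold, among them 60 that changed sign where neither fit called the member. Of the rest, 37 lost a call, 20 gained one and 6 changed sign while called in at least 1 fit. Averaging all probe sets of a gene gave Pfkp 1.78 in transplanted minus steady-state HSC, Pdk1 -0.29 in iPSC minus steady-state HSC, and Hk1 -2.20 and Pfkp -1.09 in iPSC minus transplanted HSC; the probe sets of these genes disagree. It also gave Hk2 minus Hk1 a change of 0.525 and Slc2a3 minus Slc2a1 one of 0.624 in transplanted HSC. Centring on the median of the genes tested, chosen after the data were seen, gave Aldoa 0.455 and Ldha 0.621 in transplanted minus steady-state HSC.

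Counts of called members moved as follows. With at least a 2-fold change required, 4 were called in iPSC and 4 in ESC against steady-state HSC. The shares of 76.4% and 65.6% of all genes hold without that limit, and those with it are not given here. In the steady-state age contrast 1 was called with array quality weights and 1 with only its own arrays, and in the transplanted age contrast 1 with all 16 arrays fitted together. Transplanted minus steady-state HSC gave 8 when centred on the genes tested, where the share of all genes called is not given either. Over all genes, the steady-state age calls numbered 161 as reported, 613 with array weights and 415 on those arrays alone, and the transplanted age calls 184 and 674 with all 16 arrays. With 1 array left out, the members called ran from 0 to 2 in the transplanted age contrast, 5 to 7 for transplanted, 9 to 10 for iPSC and 7 to 8 for ESC against steady-state HSC, and 9 to 10 for iPSC minus transplanted HSC. The change in Slc2a3 minus Slc2a1 in transplanted HSC ran from -0.749 to -0.491, and lost its call in 3 of those fits. Where an arm was left with 1 array, that array was assumed to vary like the others.

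With the replicate number as a block, the members called stayed at 0 for each age contrast, 5 for transplanted and 10 for iPSC against steady-state HSC, and 7 in place of 8 for ESC, where Pgk1 lost its call (adjusted p 0.0764). The block moved the age calls over all genes to 94 in steady-state and 28 in transplanted HSC. Same-numbered transplanted arrays correlated at -0.159, and a crossed pairing gave 0 members and 66 genes.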
